A study of Mus musculus with 14 samples.

Results

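The genes described here are 10 genes of heart and skeletal muscle that were measured in whole mouse lung: Myl7, Myl4, Nppa, Myh6, Tnnt2, Tnni3, Actc1, Ryr2, Acta1 and Ckm. They were chosen by name, and their probes were found through the RefSeq accession listed for each probe, which yielded 15 probes of 56605 on the array and 10 genes of 30579 tested. All 10 genes passed the filter on dim probes, which asked for a signal well above background on 3 or more of the 14 arrays. Each array holds the RNA of 1 lung of a male C57BL/6N mouse taken 1 month after intratracheal instillation. Of the 14 mice, 5 received the vehicle, PBS (control), and 3 each received 200 µg of a carbon fibre: VCF, the fibre before recycling, CCF, the fibre after carbonization, or RCF, the fibre after firing. The series' own text calls the lungs independent biological samples, and the labels used here give no age. A level below is log2 of the processed signal minus the 75th percentile of the array, so that 0 is the 75th percentile and a step of 1 is a doubling.

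The mouse lung holds heart muscle of its own. Cardiomyocytes continuous with those of the left atrium form a sleeve around the pulmonary veins, and in rodents this sleeve runs far into the lung. These cells make the atrial light chains Myl7 and Myl4 and the atrial hormone precursor Nppa together with the sarcomere proteins of all heart chambers. Skeletal muscle is not a tissue of the lung, but it lies next to it in the oesophagus wall, the diaphragm and the chest wall. Acta1 encodes the main actin of adult skeletal muscle and is made at a lower level in the heart, and Ckm encodes the muscle creatine kinase of both tissues. In whole tissue, fewer cells of a type and less RNA per cell cannot be told apart.

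The 75th percentile of the processed signal ran from 277 in VCF 1 to 2953 in RCF 2, and 47.1% to 70.0% of the probes were well above background on an array. VCF 1, CCF 2 and RCF 1 were the 3 dimmest arrays. Arrays lie on 3 slides: slide 1 carries replicates 1 and 2 of control, VCF and CCF with RCF 1, slide 2 holds control 3, VCF 3 and CCF 3, and slide 3 holds control 4 and 5 and RCF 2 and 3. Lung genes bore out the tissue label: 12 of 12, with the surfactant protein gene Sftpc at 7.61 to 9.78, were well above background on all arrays. Control 2 stands apart from the other lungs in genes of neighbouring tissues, as described below, and the main results that rest on it are given with and without it.

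Myl7, the regulatory myosin light chain of the atria, was well above background on all 14 arrays. In replicate order its level was 3.64, 5.33, 5.29, 4.00 and 5.80 in the control lungs, 4.34, 4.48 and 4.05 with VCF, 5.36, 3.82 and 3.66 with CCF and 4.19, 4.57 and 3.27 with RCF. Control 2, 3 and 5 and CCF 1 were high, RCF 3 was lowest, and the controls alone spanned all but the bottom of the range of the fibre arrays. The widest gap in the order lay between 4.57 and 5.29, with 4 arrays above it and 10 below. Across arrays the signal of Myl7 ranged 5.75-fold, and within the controls 4.45-fold.

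Myl4, the essential light chain of the atria, repeated this order closely. In replicate order its level was 3.90, 5.54, 5.45, 3.86 and 5.35 in the control lungs, 4.36, 4.49 and 3.87 with VCF, 5.71, 3.92 and 3.68 with CCF and 4.26, 4.34 and 3.15 with RCF. The same 4 arrays were high and RCF 3 was again lowest. A second probe of the gene was also lowest in RCF 3, at 0.93, and was highest in control 3, at 3.58.

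Nppa, the precursor of atrial natriuretic peptide, varied far more than the light chains. In replicate order its level was −1.64, 2.31, 3.23, −1.62 and 2.34 in the control lungs, −0.06, 3.64 and 0.96 with VCF, 3.87, −1.39 and 1.75 with CCF and 1.84, 2.04 and −2.78 with RCF. Control 1, control 4, CCF 2 and RCF 3 were low and CCF 1, VCF 2 and control 3 high, so that control and CCF held both, and the ranges of all 4 groups overlapped. The signal in CCF 1 was 100.2-fold that in RCF 3. The SD within groups was 2.42, greater than in 99.8% of all genes tested, for which the median SD was 0.376. The second Nppa probe had its extremes in the same arrays, at −4.77 in RCF 3 and 1.83 in CCF 1.

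**Figure D1:**
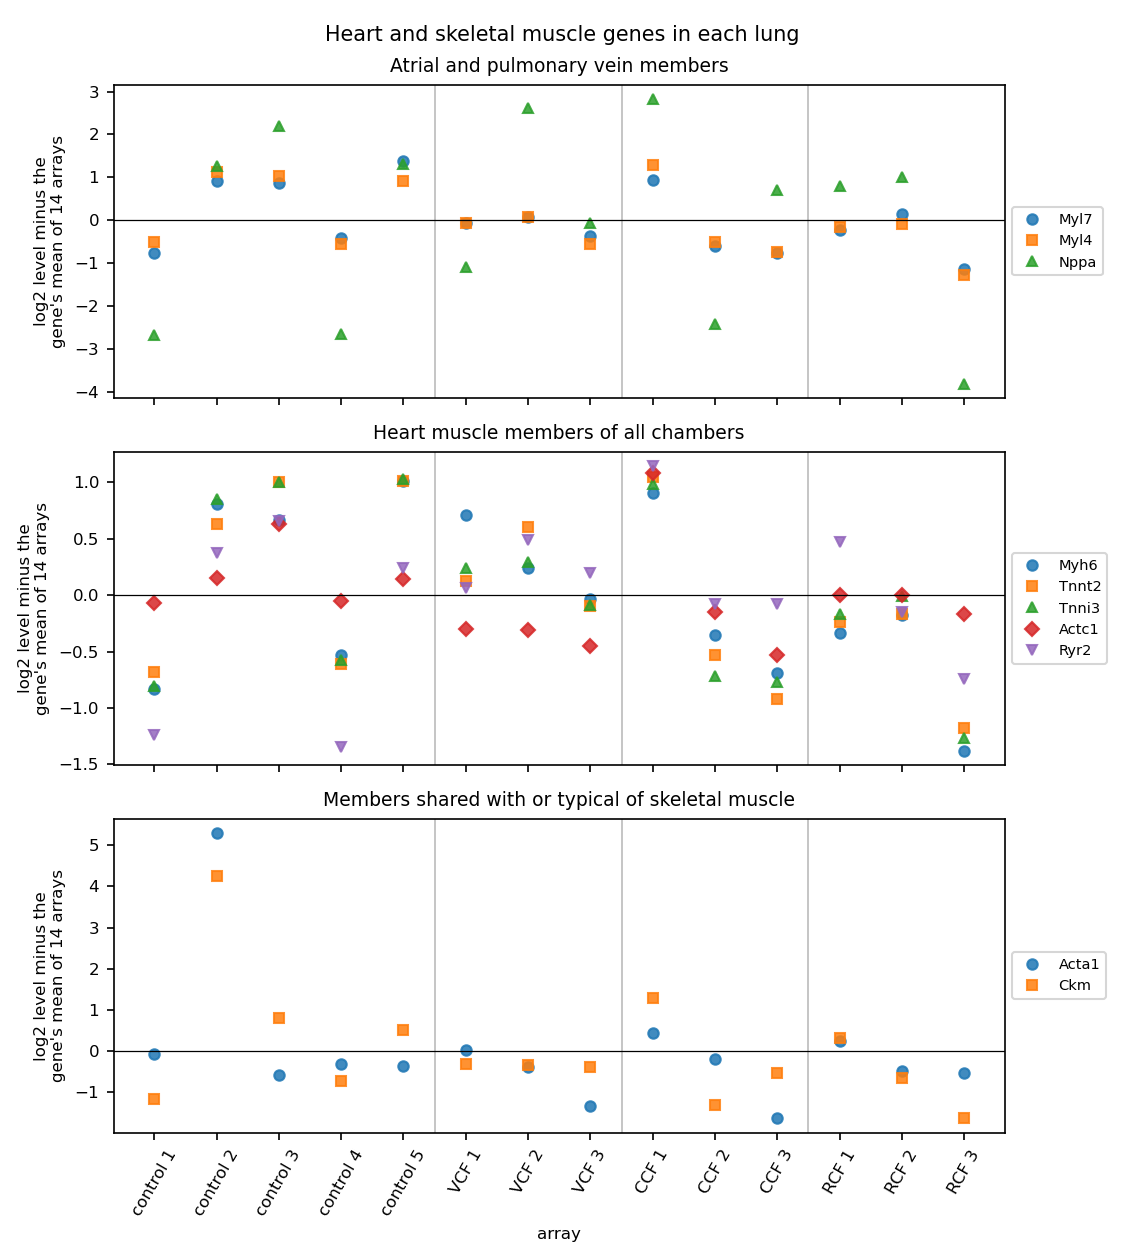
Level of each gene in each of the 14 arrays, as log2 level minus the mean of that gene over the arrays, with vertical lines between control, VCF, CCF and RCF. The heart genes sit high together in control 2, 3 and 5 and CCF 1, while Acta1 and Ckm stand out in control 2. The heart genes sit low in control 1, control 4, CCF 2 and RCF 3, and in CCF 3 except for Nppa.

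The genes made in all heart chambers followed the atrial light chains, most closely the troponin genes Tnni3 and Tnnt2. Tnni3, the cardiac inhibitory troponin subunit, read 1.25, 2.91, 3.06, 1.48 and 3.08 in the 5 control lungs, 2.30, 2.35 and 1.97 with VCF, 3.04, 1.34 and 1.29 with CCF and 1.89, 2.05 and 0.79 with RCF. Tnnt2, the cardiac troponin subunit that binds tropomyosin, read 1.97, 3.28, 3.65, 2.04 and 3.66 in the 5 control lungs, 2.78, 3.25 and 2.55 with VCF, 3.70, 2.12 and 1.73 with CCF and 2.42, 2.48 and 1.48 with RCF. In both, control 2, 3 and 5 and CCF 1 were again the 4 highest arrays, and RCF 3 was lowest. Myh6, the alpha myosin heavy chain of atria and adult mouse ventricle, ran from 3.80 in RCF 3 to 6.20 in control 5, a 5.27-fold range. In contrast to the light chains it was also high in VCF 1, at 5.89. VCF 1 is the dimmest array, and 7 of 12 lung genes were highest there too. The part of the dim array in this level of Myh6 was not tested.

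Actc1 and Ryr2 followed less tightly. Actc1, the cardiac alpha actin, read 0.95, 1.17, 1.66, 0.98 and 1.17 in the 5 control lungs, 0.72, 0.72 and 0.57 with VCF, 2.11, 0.87 and 0.50 with CCF and 1.03, 1.02 and 0.86 with RCF. Its range was the smallest of the 10, 3.06-fold, with CCF 1 highest and CCF 3 lowest, and all 3 VCF arrays lay below all 5 controls. Ryr2, the calcium release channel of the cardiac sarcoplasmic reticulum, ran from −4.04 in control 4 and −3.93 in control 1 to −1.54 in CCF 1, and VCF and CCF lay within −2.77 to −1.54. Second probes of Myh6 and Ryr2 were well above background on 6 and 8 arrays and were not used for levels.

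Seen by array, the 8 heart genes moved largely together. All 8 lay above their own median over the arrays in control 2, control 3, control 5 and CCF 1, and CCF 1 was among the 4 highest arrays for all 8. None of the 8 lay above its median in control 1, CCF 2, CCF 3 and RCF 3, and 1 did in control 4. RCF 3 held the lowest level of 6 of the 8 genes, with control 4 lowest in Ryr2 and CCF 3 in Actc1. Both kinds of array occurred in the control group, and the mean deviation of the 8 genes from their own means was 0.77, 1.01 and 0.88 in control 2, 3 and 5 against −0.95 and −0.84 in control 1 and 4.

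Acta1 behaved differently. In replicate order its level was −2.22, 3.16, −2.73, −2.46 and −2.51 in the control lungs, −2.11, −2.53 and −3.49 with VCF, −1.69, −2.33 and −3.78 with CCF and −1.90, −2.63 and −2.68 with RCF. Control 2 alone was high, and the other 4 controls lay inside the range of the fibre arrays. Control 3 and 5, above the median of all arrays in each of the 8 heart genes, were not high in Acta1. The signal in control 2 was 59.1-fold that of the lowest control. The SD within groups was 1.71 with control 2 and 0.65 without it.

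Ckm showed both patterns. In replicate order its level was −4.56, 0.87, −2.58, −4.11 and −2.88 in the control lungs, −3.72, −3.72 and −3.77 with VCF, −2.09, −4.71 and −3.93 with CCF and −3.07, −4.05 and −5.03 with RCF. The probe was not well above background in control 1, VCF 1 and CCF 2, so that those 3 values are bounds rather than levels. Control 2 stood far above the rest, and behind it came CCF 1, control 3 and control 5, the arrays high in the heart genes. The SD within groups was 1.54 and fell to 0.96 without control 2.

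**Figure D2:**
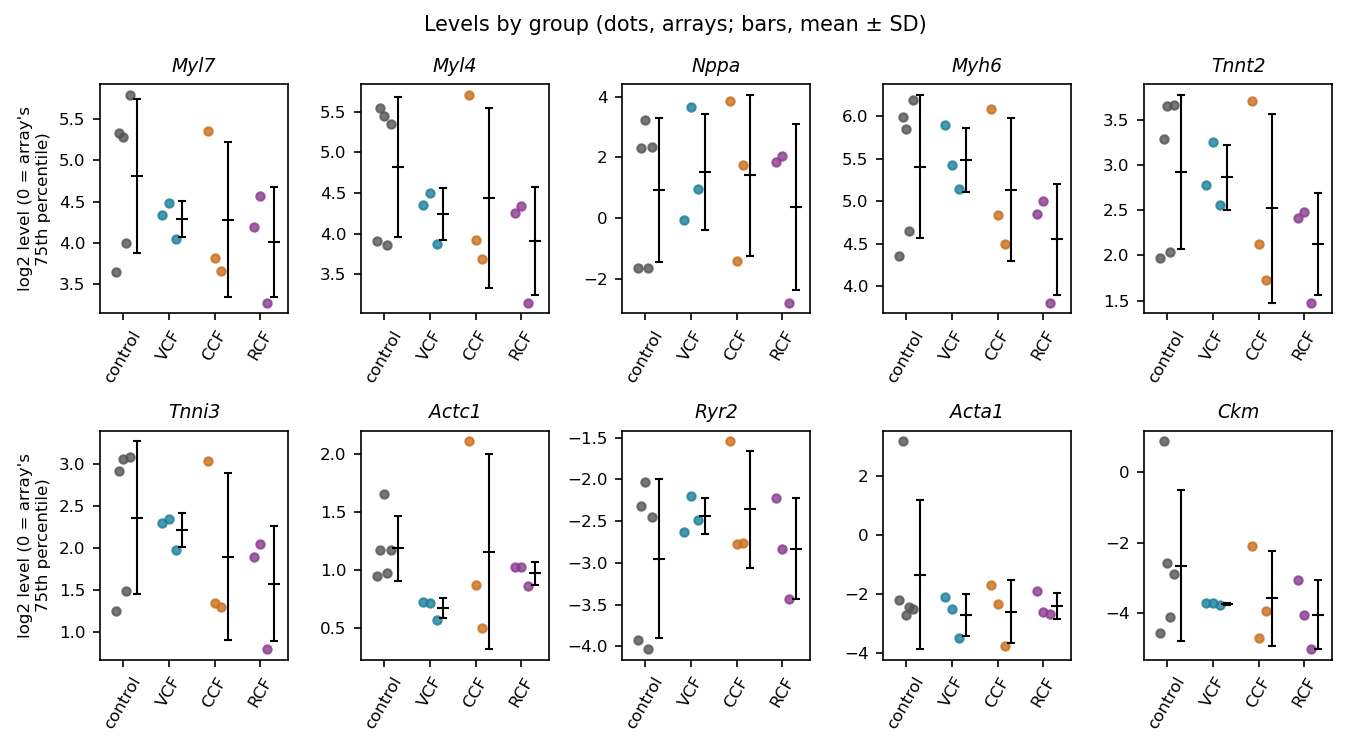
Level of each of the 10 genes by group, where dots are arrays, the bar beside them is the mean ± SD (5 control, 3 VCF, 3 CCF and 3 RCF arrays), and 0 is the 75th percentile of the array. Groups overlap except Actc1 between control and VCF and Actc1, Myh6 and Tnnt2 between VCF and RCF, and 1 control array sets the upper end in Acta1 and Ckm.

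Whether the skeletal muscle genes varied with the atrial light chain from lung to lung was tested in 3 relations over the 14 arrays, with two-sided permutation tests of 100000 resamples and Benjamini-Hochberg adjustment over the 3. Ckm rose with Myl7, with Pearson r = 0.733 (p = 0.00087, adjusted p = 0.00261) and Spearman rho = 0.855 (p = 0.00019, adjusted p = 0.00057). The relation was r = 0.797 without CCF 1 and control 5, the arrays farthest from the median of Myl7, and r = 0.856 without control 2 (adjusted p = 0.00075). Because Myl7 had a gap in its order, r was also taken over the 10 arrays below the gap, where it was 0.686. Within slide 1, over 7 arrays, r was 0.853 (exact permutation p = 0.00496), and within the first scan day, over 10 arrays, 0.80 (permutation p = 0.00044). The other slides hold 3 and 4 arrays, too few for a value, the within-slide p are not adjusted, and 3 of the Ckm values are bounds.

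Acta1 did not pass the test against Myl7, with r = 0.417 (permutation p = 0.133, adjusted p = 0.133) and rho = 0.314 (p = 0.274, adjusted p = 0.274), and r = 0.561 without CCF 1 and control 5. Without control 2 the r of Acta1 with Myl7 was 0.294 (permutation p = 0.329, adjusted p = 0.362). Within slide 1 this relation stood at r = 0.631 (exact permutation p = 0.0508) and at −0.102 without the 2 farthest arrays, and within the first scan day at r = 0.557 (permutation p = 0.0564). Acta1 and Ckm gave r = 0.833 (permutation p = 0.013, adjusted p = 0.0195) but rho = 0.38 (p = 0.18, adjusted p = 0.27). Without CCF 3 and control 2 this r was 0.296, and without control 2 alone 0.276 (adjusted p = 0.362), so that the relation rests on control 2. Within slide 1 r was 0.927 (exact permutation p = 0.00575), and within the first scan day 0.863 (permutation p = 0.0233), and both hold control 2. Spearman rho was 0.893 (exact permutation p = 0.0123) and 0.588 (permutation p = 0.0816). Without the 2 arrays farthest from the median of Acta1, control 2 among them, r was 0.503 within slide 1 and 0.254 within the first scan day.

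**Figure D3:**
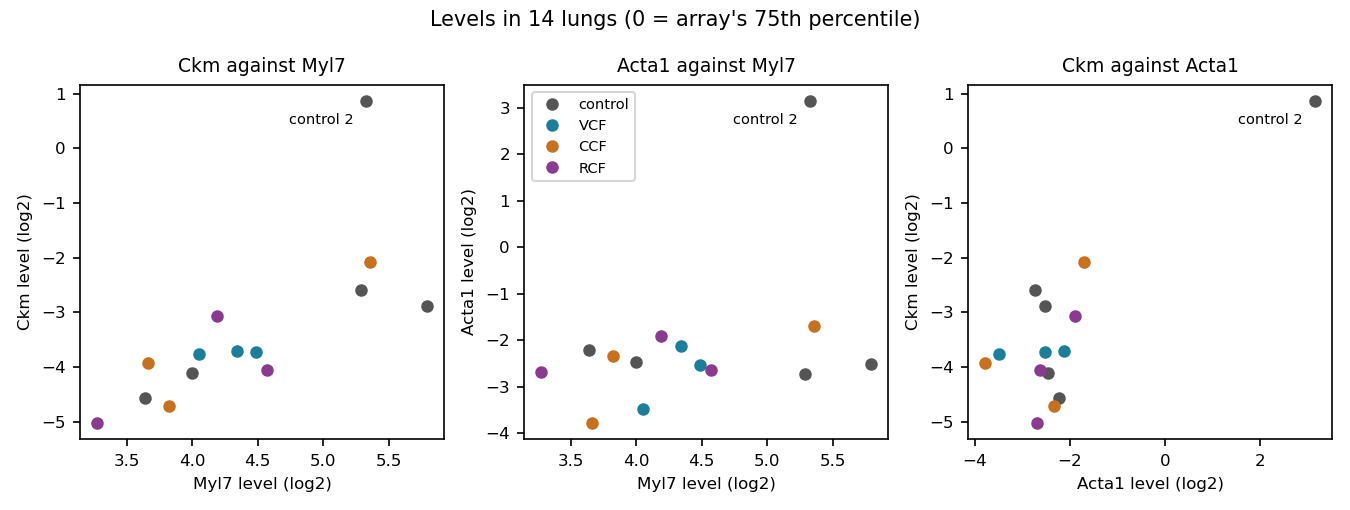
Ckm against Myl7, Acta1 against Myl7 and Ckm against Acta1 in the 14 arrays, on the log2 scale with 0 at the 75th percentile, coloured by group. Ckm climbs with Myl7 over the whole range, while Acta1 is flat except for control 2.

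The genes whose level over the 14 arrays was most like that of Myl7 were ranked among 14559 named genes that were well above background on at least 7 arrays. The 8 with the highest Pearson r were Tnni3 (r = 0.970), Myl4 (0.963), Hrc (0.958), Tnnt2 (0.945), Sbk3 (0.945), Myoz2 (0.942), Fndc5 (0.928) and Dhrs7c (0.927), and 3 of them are among the 10 genes described here. Hrc encodes a calcium-binding protein of the sarcoplasmic reticulum and Myoz2 a Z-disc protein. Of the other heart genes described here Myh6 ranked 11 (r = 0.919), Nppa 76 (0.754), Actc1 142 (0.67) and Ryr2 155 (0.664). Ckm ranked 82 and Acta1 1012. These r describe 14 arrays that share slides, and no test was made on them.

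The 8 genes most like Acta1 were Lce3d (r = 0.979), Ly6g6c (0.969), Krtdap (0.969), Hebp2 (0.969), Clstn3 (0.968), Dmkn (0.963), Lce1c (0.963) and Nlrp10 (0.954). None is a muscle gene: Lce3d and Lce1c encode proteins of the cornified envelope of squamous epithelium, and Krtdap and Dmkn are expressed in differentiating keratinocytes. Krtdap lay at 6.02 in control 2 and at −4.05 in the next control. Without control 2 the r of Krtdap with Acta1 was 0.713 and its rank 566, and Lce3d had r = 0.83 and rank 117. Ckm, at rank 163 for likeness to Acta1, came to rank 3562 without control 2, so that the ranking by Acta1 rests on that array. The ranking by Myl7 kept Tnni3 first without control 2 (r = 0.966), with Myl4 at rank 3 and Tnnt2 at rank 6.

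Lists of genes from the heart, skeletal muscle and neighbouring tissues, which leave out the 10, were set beside these patterns. Of 26 other heart and pulmonary vein muscle genes measured, 11 had r above 0.8 with Myl7 (11 also without control 2), against 0.203% of all genes tested. They included Sln, a regulator of the calcium pump of atrial muscle (r = 0.906), Tnnc1, the cardiac and slow muscle troponin subunit that binds calcium (0.894), Actn2, the Z-disc alpha actinin of heart muscle (0.923), and Mybpc3, the cardiac myosin binding protein (0.901), of which all but Sln were picked after their values were seen. Over the 26 genes r with Myl7 ran from −0.167 to 0.958, with a median of 0.630 (0.627 without control 2). Sln, the highest gene of the list, was at 4.03 in control 2 and 3.75 in CCF 1 and at 0.94 in RCF 3. The list's summed signal, in units of the 75th percentile, ran from 15.9 to 42.1 over the controls, from 21.0 to 32.1 with VCF, from 16.5 to 46.6 with CCF and from 13.7 to 21.3 with RCF. CCF 1 held the highest level of 11 of these 26 genes and control 2 that of 7.

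Of 5 ventricle genes measured, 0 had r above 0.8 with Myl7. Myl2, the ventricular regulatory light chain, stood at r = 0.125 and Myh7, the beta myosin heavy chain, at −0.00. Myl2 was well above background on 13 arrays, with −5.88 in CCF 3 and −1.32 in VCF 1 as its extremes. Myl3, the ventricular and slow muscle essential light chain, was at 3.65 in control 2. Behind it came CCF 1 (0.47), control 3 (0.18) and control 5 (0.05), the arrays high in the heart genes. Its r was 0.655 with Myl7 (0.679 without control 2) and 0.877 with Acta1 (0.594 without control 2). The other members of the list, Irx4 and Hey2, were well above background on 6 arrays each. Myl3 and Irx4 were picked after their values were seen.

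The skeletal muscle list followed Acta1. Of its 23 measured genes, 21 were highest in control 2, and the summed signal was 174 there, 8.26 to 16.5 in the other controls, 5.99 to 12.7 with VCF, 6.67 to 22.4 with CCF and 6.10 to 11.8 with RCF. Tnnc2, the troponin C of fast fibres, was at 5.41 in control 2 and between −4.30 and −2.84 in the other 13 arrays, and Myh1, a fast myosin heavy chain, was at 3.74 in control 2 and well above background on 5 arrays in all (both picked after their values were seen). No share over all genes was taken for any count of genes highest in a given array. With Acta1, 11 of the 23 had r above 0.8, against 1.24% of all genes tested. Without control 2 it was 3 of the 23, against 2.62%. Myl1, the fast skeletal light chain and the gene of the list with the highest signal, instead had r = 0.883 with Myl7 and 0.674 with Acta1. Of 20 genes shared by heart and skeletal muscle, 10 had r above 0.8 with Myl7 and 2 with Acta1, and 15 were highest in control 2. Without control 2 these counts were 11 with Myl7 and 0 with Acta1.

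Control 2 was also high in genes of other tissues. Squamous epithelium genes, which line the oesophagus, summed to 253 in control 2 and to 1.02 to 2.85 in the other 13 arrays, with 7 of 9 measured genes highest in control 2. Well above background were 8 of 9 in control 2 and also in control 5, so that the level and not this count sets control 2 apart. Fat cell genes summed to 386 in control 2 and to 181 in VCF 2, and to between 21.3 and 98.5 in all other arrays, with 11 of 12 genes highest in control 2. Ucp1, the uncoupling protein of brown fat, was at 3.96 in control 2 and at most −1.34 elsewhere (picked after its values were seen). Smooth muscle genes gave no r above 0.8 with Myl7 or Acta1 (9 measured), nor did airway cartilage (4), thymus (3) and lung genes (12). The part of these tissues in the level of Acta1 and Ckm was not tested, and the other 4 controls give the same 2 genes at −2.73 to −2.22 and −4.56 to −2.58.

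**Figure D4:**
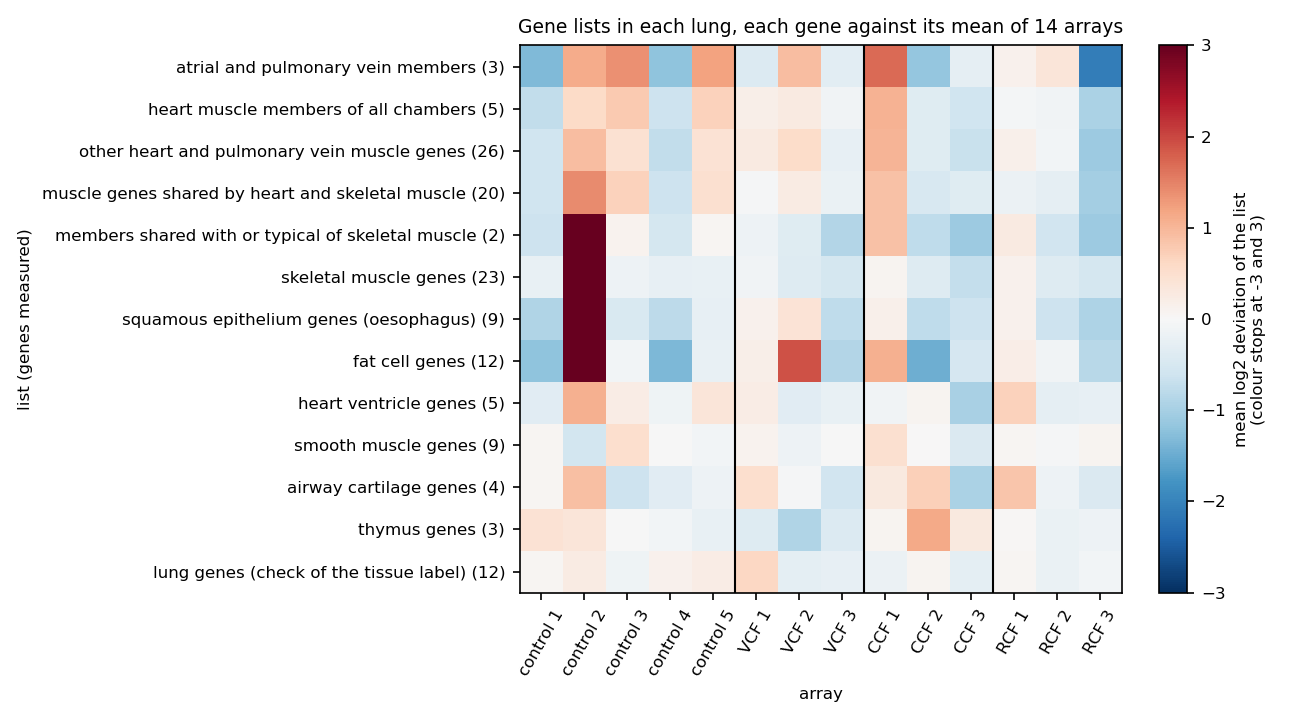
Mean log2 deviation of 13 gene lists in each array, each gene taken against its own mean of 14 arrays, with the number of genes measured in brackets and colours stopping at −3 and 3. Skeletal muscle, squamous epithelium and fat genes stand out in control 2. The heart lists other than the ventricle list are high in control 2, 3 and 5 and CCF 1 and, less evenly, in VCF 2. They are low in control 1, control 4, CCF 2, CCF 3 and RCF 3. The ventricle list shares this pattern only in part. It is higher in control 2, 3 and 5 than in control 1 and 4 and lowest in CCF 3, but it is not high in CCF 1 or VCF 2.

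Each fibre was compared with the vehicle to ask whether it shifted these genes beyond the spread between lungs. The test was limma on all genes with the 4 groups sharing the spread, and a gene passed with an adjusted p (Benjamini-Hochberg over all genes) under 0.05. In VCF against control 0 of the 10 passed, and 0 had an unadjusted p under 0.05, where 0.085% of all genes passed. In CCF against control it was 0 and 0 of 10 with 5.99% of all genes passing, and in RCF against control 0 and 0 of 10 with 0.154% passing. The lowest adjusted p among the 10 was 0.627 for VCF, 0.53 for CCF and 0.522 for RCF. A p that misses the threshold does not show equal levels, and the 95% confidence intervals were wide.

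The estimates were mostly below 0. In RCF 9 of the 10 genes were below control, with a median of −0.80 (0.06 over all genes), in CCF 8 (median −0.39, 0.00 over all genes) and in VCF 7 (median −0.33, 0.00 over all genes). Single arrays moved these medians. Without control 2 the median was −0.58 for RCF, −0.12 for CCF and −0.11 for VCF, and without control 3 or control 5 it was −0.19 or −0.12 for VCF, where 5 of the 10 lay below control, and −0.22 or −0.23 for CCF. Without control 1 or control 4 it was −1.11 or −1.03 for RCF, −0.63 or −0.62 for CCF and −0.50 or −0.47 for VCF. For CCF it was −1.01 without CCF 1, −0.16 without CCF 2 and −0.01 without CCF 3, and for VCF −0.51 without VCF 2 and −0.21 without VCF 3. For RCF it was −0.97 without RCF 1, −1.05 without RCF 2 and −0.45 without RCF 3. The 3 comparisons share the 5 control arrays, and the heart genes vary together, so that these signs are not separate pieces of evidence. For Myl7 the mean was 4.81 ± 0.93 in control (SD, n = 5), 4.29 ± 0.22 with VCF, 4.28 ± 0.94 with CCF and 4.01 ± 0.67 with RCF (SD, n = 3 each). Its difference from control was −0.52 ± 0.54 (SE) with VCF, −0.53 ± 0.54 with CCF and −0.80 ± 0.54 with RCF, the last with a 95% interval of −1.98 to 0.37. Leaving out 1 array at a time it ran from −0.81 to −0.27 with VCF, from −1.07 to −0.22 with CCF and from −1.09 to −0.43 with RCF. The order of the group means was thus control, VCF, CCF and RCF, with each neighbour within the spread of the next.

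Other differences had the same form. Myh6 in RCF stood at −0.86 ± 0.50 (SE), Myl4 at −0.91 ± 0.55, Tnnt2 at −0.80 ± 0.53 and Tnni3 at −0.78 ± 0.54, and all 4 intervals crossed 0. In VCF, Myh6 (0.08), Tnnt2 (−0.06) and Tnni3 (−0.15) lay close to control. Nppa had 95% intervals of −2.97 to 4.15 with VCF, −3.07 to 4.04 with CCF and −4.11 to 3.00 with RCF, so that a change of several-fold in either direction could not have been seen at this spread. Ryr2 was above control in all 3, at 0.51 ± 0.50 (SE) with VCF, 0.59 ± 0.50 with CCF and 0.12 ± 0.50 with RCF.

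Actc1 in VCF was the 1 gene of the 10 whose arrays did not overlap with control in any of these 3 comparisons. Between VCF and control 7.38% of all genes did not overlap (0.085% passed the test), so that 1 of 10 is near that share. For CCF and RCF it was 0 of 10, against 16.3% and 11.4% of all genes. Its mean was 0.67 ± 0.09 (SD, n = 3) in VCF and 1.19 ± 0.28 (SD, n = 5) in control. The difference was −0.52 ± 0.30 (SE), with a 95% interval of −1.16 to 0.13 and a limma adjusted p of 0.627 over all genes.

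The estimates for Acta1 and Ckm were the lowest of the 10 in all 3 comparisons and depended on control 2. Acta1 stood at −1.36 ± 1.15 (SE) with VCF, −1.25 ± 1.15 with CCF and −1.05 ± 1.15 with RCF. Without control 2 these became −0.23, −0.12 and 0.08. Ckm stood at −1.08 ± 1.04 with VCF, −0.92 ± 1.04 with CCF and −1.40 ± 1.04 with RCF, and at −0.20, −0.04 and −0.51 without control 2.

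**Figure D5:**
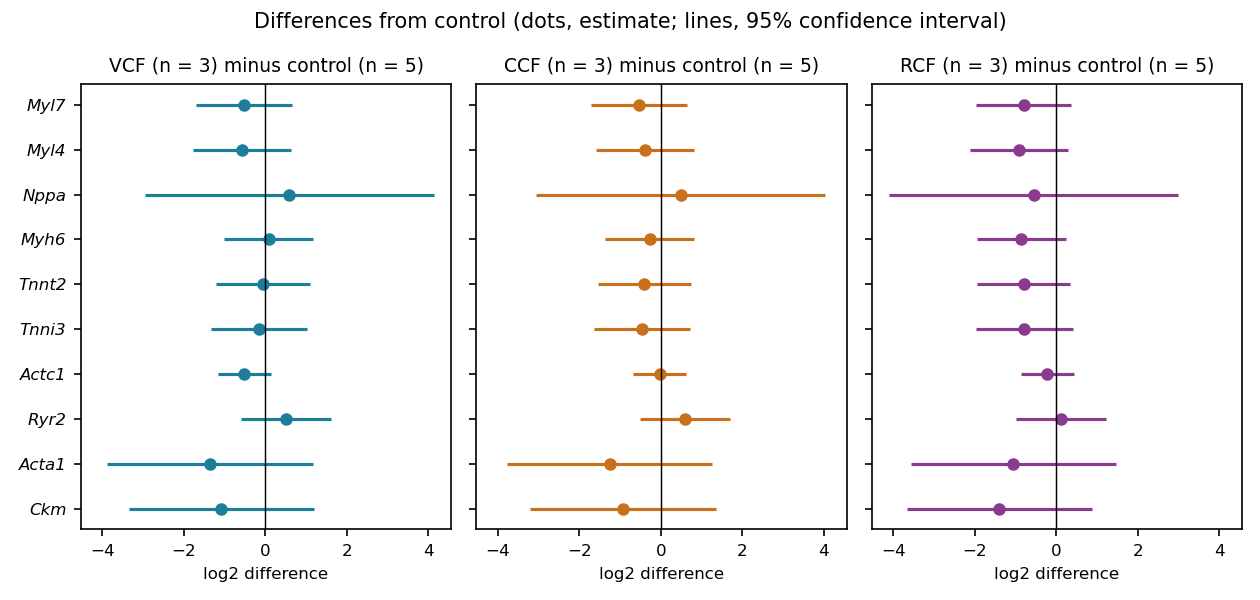
Log2 difference of each gene from control for VCF, CCF and RCF (3 arrays each against 5), where dots are estimates and lines 95% confidence intervals from the fit over all genes. Every interval crosses 0, and those of Nppa, Acta1 and Ckm are the widest.

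Within slides, the count of genes above control changed with the slide for CCF and VCF, and less for RCF. On slide 1, VCF was above control in 5 of the 10 genes and CCF in 8, while on slide 2, with 1 array per group, VCF and CCF were below control in all 10. RCF was below control in 8 of 10 on slide 1 and in 9 of 10 on slide 3. For Myl7 the difference was −0.07 and −1.24 for VCF on slides 1 and 2, 0.11 and −1.63 for CCF, and −0.29 and −0.98 for RCF on slides 1 and 3. Control 3, the 1 control of slide 2, is among the arrays high in the heart genes.

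The remaining comparisons gave no call either. The mean of the 3 fibres against control had 0 of 10 past the threshold and 0 at an unadjusted p under 0.05, with 2.58% of all genes passing and 8 of the 10 below control (median −0.44). The fibre arrays and the control arrays did not overlap for 0 of 10, against 1.65% of all genes. Between fibres the counts were 0 and 0 of 10 for CCF against VCF (0.222% of all genes), RCF against VCF (0.00981%) and RCF against CCF (0.00327%). RCF lay below VCF in 8 of 10 genes and below CCF in 9 of 10, and single arrays set both. Without RCF 3 these became 4 of 10 and 5 of 10, and without CCF 1 RCF lay below CCF in 2 of 10. Myh6 and Tnnt2 were lower in all 3 RCF arrays than in any VCF array and Actc1 was higher, where 15.5% of all genes did not overlap between these groups, and the lowest adjusted p among the 10 was 0.673. For CCF against VCF and RCF against CCF 0 of 10 did not overlap, against 19% and 16% of all genes.

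Of the heart and muscle lists that leave out the 10, 1 gene passed in a comparison with control. Gja5, the connexin of atrial muscle and of arterial endothelium, was lower in the mean of the 3 fibres by the limma test over all genes (−0.60 ± 0.14 SE, adjusted p = 0.0495). It was 1 of 26 genes of the heart list, where 2.58% of all genes passed. The r of Gja5 with Myl7 was 0.464 (0.378 without control 2), so that it followed the heart genes only loosely. In replicate order its level was 0.50, 1.06, 0.73, 0.98 and 1.36 in the control lungs, 0.32, 0.34 and 0.41 with VCF, 0.06, 0.48 and 0.19 with CCF and 0.62, 0.21 and 0.31 with RCF. Control 1 and RCF 1 were the arrays where the groups overlapped. Leaving out any 1 array ended the call, with adjusted p between 0.0557 and 0.137 and differences between −0.71 and −0.49. By limma 0 genes of the skeletal muscle, shared muscle and ventricle lists passed in a comparison with control. At an unadjusted p under 0.05, the skeletal muscle list had 5 of 23 genes for VCF, 0 for CCF and 2 for RCF, the shared list 1, 1 and 2 of 20, the heart list 1, 1 and 1 of 26 and the ventricle list 2, 1 and 2 of 5, where 9.96%, 23.7% and 12.9% of all genes did so.

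The promoters of Myl7, Actc1 and Acta1 are shown because they hold the same kind of element. Control 2, 3 and 5 and CCF 1 were the highest arrays for Myl7 and Actc1, whereas Acta1 was high in control 2 alone. Each run gives 120 bases up to the annotated start, 5′ to 3′ on the strand of the gene, from RefSeq on GRCm38.p6, and capitals mark the CArG box, the site that serum response factor recognises (chr11:5898783-5898902, chr2:114052876-114052995 and chr8:123894776-123894895, all on the minus strand).
Myl7: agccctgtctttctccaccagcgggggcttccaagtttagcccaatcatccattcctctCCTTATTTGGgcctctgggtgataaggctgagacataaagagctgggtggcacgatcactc
Actc1: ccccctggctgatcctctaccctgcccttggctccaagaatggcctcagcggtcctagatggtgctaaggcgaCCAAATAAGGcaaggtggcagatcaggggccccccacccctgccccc
Acta1: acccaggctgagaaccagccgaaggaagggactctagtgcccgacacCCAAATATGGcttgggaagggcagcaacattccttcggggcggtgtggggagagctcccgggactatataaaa

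Of the 10 genes, 3 had a CArG box in the window from 250 bases before to 50 after the start, where 1.63% of 32851 windows of all genes did. The 10 genes have 11 windows, and a gene was counted if any of its windows held the element, whereas the shares here are per window. The box begins 61 bases before the annotated start in Myl7, 47 in Actc1 and 73 in Acta1, and it overlaps no other element searched. The MCAT element, CATTCC on either strand, was found in Myl7, Acta1, Myh6 and Tnnt2 and in 14.7% of all windows. The E-box, CANNTG, was found in 9 of the 10 and in 72.3% of all windows. The GATA element, AGATAA on either strand, was found in Tnnt2 alone (11.2% of all windows), and TATAAA on either strand in Acta1, Actc1, Myh6 and Nppa (13.6%). The MEF2 site was in none of the 10 and in 3.19% of all windows. A match describes letters in these windows and says nothing of binding.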

How the data were processed

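Total RNA of 14 mouse lungs was labelled with Cy3, per the labels' protocols, and each was hybridised to 1 one-colour Agilent array (62976 spots, 3671 of them controls). The deposited array files hold intensity values, the processed signal of Feature Extraction 10.7.3.1 per the file headers, background-subtracted and not scaled between arrays. The authors' deposited values for the series are log2 values of 32177 probes with each column shifted by 1 constant from the array file. That table was used as an alternative, and what its constants are is unknown (column medians −0.52 to 0.30).

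From the intensities, log2 was taken and the 75th percentile of each array over spots other than controls was subtracted. Outlier spots were dropped and repeated spots averaged. A gene with several probes was read from its brightest one on average. Symbols came from RefSeq accessions (32994 of 56605 probes had 1 symbol). All genes were fitted with limma 3.58.1 in R 4.3.3 over 14 arrays without covariates, two-sided, in 7 comparisons, and checked on simulated data. The number of arrays limits the precision. Groups came from the labels.

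The 10 genes and the 13 lists were chosen with earlier results of these data known. Named genes are the 10, per list the gene with the highest signal, up to 3 with the lowest p and any past the threshold, and the 8 most like Myl7 and like Acta1; others are marked as picked after their values were seen. Alternatives were the slide, the replicate number, background correction, scaling, filters, probes, dim arrays and single arrays left out.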

Additional observations from a re-analysis of the deposited data

Results flagged for a closer look

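In the 5 control arrays a gene was marked where the gap between the highest or lowest array and its nearest neighbour, divided by the whole range, was above 0.71, Dixon's 95% value for 5 arrays. Chance marks about 1 in 20 groups. Of the 10 genes 1 was marked, Acta1, with a ratio of 0.913, for 3.16 in control 2 against −2.22 in the nearest control. Ckm, also highest in control 2, was not marked.

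Of 49 other named genes, 13 were marked, 12 of them in control 2. These were Mybpc2, a myosin binding protein of fast skeletal muscle (0.873), Cidea, a fat cell gene (0.802), Chad of cartilage (0.737), and the genes ranked as most like Acta1: Krtdap (0.987), Nlrp10 (0.897), Dmkn (0.882), Ly6g6c (0.846), Hebp2 (0.823), Clstn3 (0.823), Lce3d (0.791) and Lce1c (0.782). Genes ranked by likeness to Acta1 are bound to share its extreme array. Hopx of the alveolar epithelium was lowest in control 2 (0.752). Col2a1 of cartilage was lowest in control 3 (0.739).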

How the results depend on the processing

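The count of the 10 genes past the threshold was 0 in each of the 7 comparisons under each alternative run, and the lowest adjusted p was 0.191 in CCF, 0.395 in RCF and 0.491 in VCF against control. No difference that changed direction had passed the test, and the cause was not tested. With slide as a fixed block Nppa stood at −0.001 in VCF and −0.105 in CCF, and with quantile normalization Tnnt2 in VCF at 0.007. Without the 3 dim arrays Myh6 in VCF stood at −0.124, Actc1 in CCF at 0.117 and Ryr2 in RCF at −0.184, and with the mean of the probes of a gene Ryr2 at −0.001 in CCF and −0.128 in RCF. Leaving out 1 array at a time, Nppa ran from −0.473 to 1.38 in VCF, −0.742 to 1.887 in CCF and −1.393 to 1.018 in RCF, Tnnt2 in VCF from −0.298 to 0.125, Myh6 from −0.186 to 0.276 in VCF and −0.745 to 0.051 in CCF, Tnni3 in VCF from −0.427 to 0.032, Actc1 in CCF from −0.501 to 0.305, Ryr2 in RCF from −0.184 to 0.424 and Acta1 in RCF from −1.395 to 0.076. The relation of Acta1 with Ckm was r = 0.276 (adjusted p = 0.362) without control 2, an alternative added after seeing the data. Gja5 kept its direction in all 25 alternatives, passed in 4 of them and missed the threshold in 21. Among those 4 is the fit to only the groups compared, which repeats the main fit because this comparison holds all groups. Of 18 pairs of arrays with equal numbers, 12 had r above 0.1 between their deviations from group means and 12 lay on a shared slide, and 6 of 12 arrays were most like an array of their own number, so that the numbers were not taken as pairs. Of 36 pairs with other numbers 8 had r above 0.1 (median −0.11, against 0.18 for equal numbers). With the replicate number as a block, which drops control 4 and 5, 0 of the 10 genes passed in each comparison and Ryr2 in RCF stood at −0.071. Over all genes the calls under that block fell to 0 in VCF, 2 in CCF and 0 in RCF from 26, 1832 and 47. With slide as a fixed or a random block they rose to 35 or 95 in VCF, 1869 or 2953 in CCF and 457 or 468 in RCF. The weak signal of Ckm, not well above background on 3 arrays, and the 3 dim arrays limit the low values.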

Other observations

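The 12 fat cell genes had a median r of 0.548 with Myl7 (0.471 without control 2) and of 0.648 with Acta1 (0.202 without control 2), against −0.00 and 0.03 over all genes. Adipoq, the adipokine adiponectin, was at 3.71 in control 2, 3.14 in VCF 2 and 1.66 in CCF 1, and at −2.37, −2.54 and −2.65 in control 1, control 4 and CCF 2. Cfd, the complement factor adipsin, was at 6.73 in control 2 and 6.21 in VCF 2 and at 0.98 in CCF 2. Cidea, a lipid droplet gene of brown fat, was at 5.48 in control 2, 2.83 in VCF 2 and 0.97 in CCF 1, and at most 0.13 in the other arrays. By limma 0 of 12 fat cell genes passed in VCF, CCF or RCF against control, and 0 had an unadjusted p under 0.05.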
